A study of Mus musculus with 12 samples.

Results

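The 39 Hox genes of the mouse HoxA, HoxB, HoxC and HoxD clusters were followed in RNA sequencing of cultures that embryonic stem cells had formed after 72 h. They were taken by symbol from a table of 24736 genes (the prefix Hox, a cluster letter and the paralogue number), which gave 11 genes of HoxA, 10 of HoxB, 9 of HoxC and 9 of HoxD. The 12 libraries formed 4 groups of 3 biological replicates, and every culture received FGF at 10 ng/ml and 5 µM LGK974, a blocker of WNT ligand secretion. EpiLC (epiblast-like cells) were wild type and received no other factor. CEpiLC (caudal epiblast-like cells) were wild type and were exposed from day 2 to day 3 to CHIR99021, a GSK3 inhibitor that switches on the WNT pathway. SOX2-OFF and SOX2-ON had the same exposure to CHIR99021. Both were grown from a clonal line called SOX2 TetON, genotype Sox2-/-, made in the wild-type HM1 TetON cells, which carries a doxycycline-driven Sox2 transgene at Hprt and rtTA at Rosa26. SOX2-ON cultures stayed in doxycycline (1 µg/ml), and from SOX2-OFF cultures it had been withdrawn. SOX2-ON against SOX2-OFF was thus a comparison within 1 line, whereas in each comparison of these groups with CEpiLC the line differed too, so that line and SOX2 cannot be told apart there. Doxycycline was in SOX2-ON only, so that it changed too in every comparison of that group. No TetON culture without CHIR99021 was analysed here.

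Hox genes encode homeodomain transcription factors that give cells their position along the head-to-tail axis. In each cluster the genes lie in the order in which they are used: those at the 3′ end (paralogue groups 1 to 3) are switched on early and mark the hindbrain and anterior levels, and those towards the 5′ end follow later and mark progressively more posterior levels. In the caudal epiblast this activation depends on WNT and FGF signals, on CDX factors and on retinoic acid. HOX proteins bind DNA together with TALE cofactors of the PBX, MEIS and PKNOX families.

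In RefSeq positions on GRCm38.p6, the patch release of the mm10 assembly that the deposited table uses, HoxA lies on chromosome 6, HoxB spans chromosome 11 from 96194316 to 96368254, HoxC chromosome 15 from 102921131 to 103036856 and HoxD chromosome 2 from 74668225 to 74765142. Promoter sequences from RefSeq were at hand for 22 of the 39 genes, 3 of them in HoxB. These 3 are printed because Hoxb1, Hoxb4 and Hoxb8 stand for the anterior, middle and posterior stretches of the cluster, whose levels differed most between the groups. Each line holds the 250 bases before the start that the promoter set uses, 5′ to 3′ on the plus strand. The windows are chr11:96365508-96365757 (Hoxb1), chr11:96318017-96318266 (Hoxb4) and chr11:96281655-96281904 (Hoxb8). These starts are not always the first base of the gene. The Hoxb1 window runs past its gene's first base at 96365746, and the Hoxb8 window lies inside its gene's span of 96279401 to 96285325. Capitals mark the motifs searched on both strands, which were TTTATG (CDX), CTTTGA (TCF/LEF), CTTTGT and CATTGT (both SOX).
Hoxb1: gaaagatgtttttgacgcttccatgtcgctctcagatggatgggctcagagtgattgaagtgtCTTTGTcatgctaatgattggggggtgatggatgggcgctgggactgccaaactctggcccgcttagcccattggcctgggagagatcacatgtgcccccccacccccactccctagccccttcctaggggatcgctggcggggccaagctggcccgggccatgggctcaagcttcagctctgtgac
Hoxb4: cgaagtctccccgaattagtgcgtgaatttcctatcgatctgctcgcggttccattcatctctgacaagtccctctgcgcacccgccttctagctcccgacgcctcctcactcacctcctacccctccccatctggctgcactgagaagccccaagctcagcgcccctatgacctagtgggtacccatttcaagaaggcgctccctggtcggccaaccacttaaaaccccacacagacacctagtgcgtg
Hoxb8: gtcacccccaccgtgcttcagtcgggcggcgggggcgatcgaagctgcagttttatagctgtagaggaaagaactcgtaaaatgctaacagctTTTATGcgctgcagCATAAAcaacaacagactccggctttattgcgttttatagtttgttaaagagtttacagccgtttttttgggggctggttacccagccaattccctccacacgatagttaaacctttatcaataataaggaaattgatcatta

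The Hoxb8 window held the CDX letters at 2 places, on the plus strand 157 to 152 bases and on the minus strand 143 to 138 bases before the start. The Hoxb1 window held the SOX letters CTTTGT once, 187 to 182 bases before the start, and the Hoxb4 window held none of the 4 motifs. Over all 32536 distinct windows of that length, TTTATG occurred in 10.8%, CTTTGA in 13.9%, CTTTGT in 16.5% and CATTGT in 10.5%, and among the 22 Hox genes with a window they occurred in 5, 3, 5 and 0. After the Hoxb1 sequence had been seen, an octamer (ATGCNAAT) and a PBX-HOX pattern (TGATNNAT) were searched as well. Hoxb1 held the first 180 to 173 and the second 162 to 155 bases before its start, and Hoxb8 held the second 11 to 4 bases before its start. Of all windows, 2.89 and 7.66% held them. These are matches of letters, and binding was not measured here.

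Library totals ran from 10408252 to 27337740 expected counts, the read numbers per gene that RSEM estimates. Sox2 RNA, which checks the labels, was at 119 to 171 TPM (a level per transcript length, scaled to the same total in every library) in EpiLC, 7.78 to 13.7 in CEpiLC, 12.3 to 21.2 for SOX2-OFF and 173 to 215 with SOX2-ON. SOX2-OFF was thus not below CEpiLC at the RNA level, and a read does not tell the transgene from what is left of the endogenous transcript. The caudal markers (T, Cdx2, Nkx1-2, Wnt3a, Fgf8 and Sp5) summed to 1.5 to 2.51 TPM in EpiLC and 1510 to 1660 in CEpiLC. The 9 extraembryonic endoderm markers summed to 289 to 336 TPM in SOX2-OFF and 123 to 342 in SOX2-ON against 6.42 to 13 in the wild-type groups. The 10 fibroblast markers summed to 42.4 to 59.8 TPM in EpiLC, 60.6 to 90.9 in CEpiLC, 24.6 to 48.3 in SOX2-OFF and 32.4 to 52.5 in SOX2-ON. Embryonic stem cells had been kept on fibroblast feeders, which express Hox genes themselves, and the part of these cell types in the Hox values was not tested. In bulk RNA, fewer cells of a type and less RNA per cell cannot be told apart.

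EpiLC held almost no Hox RNA. No Hox value in the 3 EpiLC libraries was above 1.05 TPM, 9 of the 39 genes had no count in any of them, and the summed Hox level was 2.51, 2.81 and 3.39 TPM. The sum of replicates 1 to 3 was 526, 325 and 750.5 TPM in CEpiLC. It was 149.98, 149.8 and 251 TPM in SOX2-OFF, and SOX2-ON had 37.03, 41.1 and 67.6. The 4 groups did not overlap in this sum. The number of Hox genes with a mean of at least 1 TPM was 18 for CEpiLC, 12 for SOX2-OFF and 15 for SOX2-ON. Hoxc11 and Hoxd12 had no count in any of the 12 libraries. Each of the 468 Hox values was exactly a whole number of reads, with a tolerance of 0, so that no read was seen to be divided between a Hox gene and another gene.

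**Figure D1:**
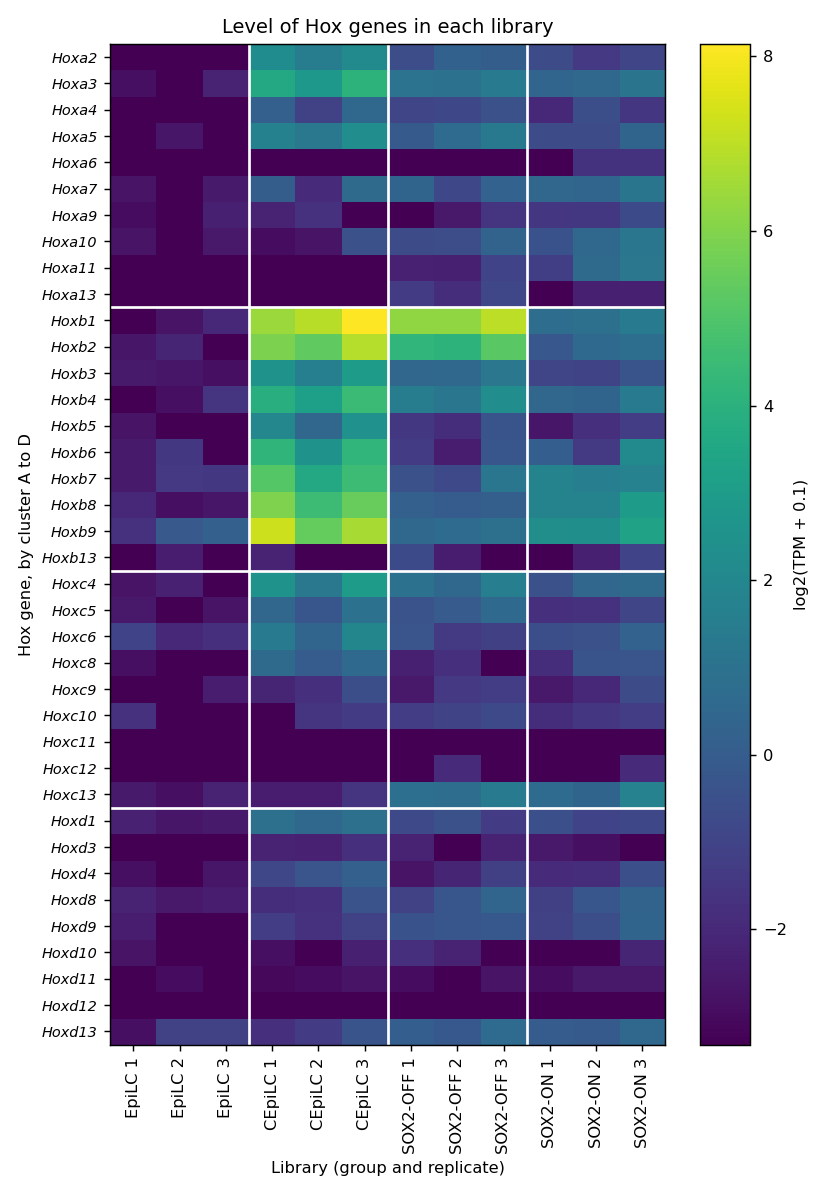
Colour gives log2(TPM + 0.1) of the Hox genes shown (rows, by cluster A to D) in each of the 12 libraries (columns, by group and replicate), and white lines part the clusters and groups. The 3 EpiLC columns are dark throughout, CEpiLC is bright in HoxB, SOX2-OFF stays bright at Hoxb1 and Hoxb2, and Hoxc13 is brighter in both groups of the TetON line.

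The first comparison, CEpiLC against EpiLC, asked how wild-type cells respond to CHIR99021. Of the 39 Hox genes, 25 had enough reads to be tested, and 21 of these rose (edgeR quasi-likelihood test, adjusted p at most 0.05 over 14196 genes), while 22.1% of all genes tested were called higher and 20.1% lower. None fell by edgeR, DESeq2 or limma-voom, also not at an unadjusted p of at most 0.05. EpiLC values of at most 1.05 TPM left little room for a fall, so its absence says little. By cluster, 5 of the 6 tested HoxA genes, 9 of 9 HoxB, 4 of 5 HoxC and 3 of 5 HoxD rose. The median log2 fold change of the 25 was 6.33 against 0.01 for all genes tested, but a gene absent from EpiLC could enter the test only through a group in which it was high. The 4 tested genes without a call were Hoxa10 (9 against 2 counts, 4.21-fold per sequenced read with a 95% counting interval of 0.872 to 40.1, adjusted p 0.287), Hoxc13 (0.57, adjusted p 0.638), Hoxd8 (1.70, adjusted p 0.147) and Hoxd13 (0.48, adjusted p 0.587), all of paralogue groups 8 to 13. With the replicate number as a block, Hoxd8 was called too (1.74, adjusted p 0.0469).

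HoxB carried 78.9 to 82.8% of the Hox TPM of CEpiLC, HoxA 14.5 to 18.5%, HoxC 1.74 to 2.15% and HoxD 0.589 to 0.885%. Within HoxB the levels were high at both ends and low in the middle. Hoxb1, a group 1 gene of the early hindbrain and posterior epiblast, stood at 84.2, 119 and 283 TPM in CEpiLC against 0, 0.05 and 0.15 in EpiLC, or 7699 against 3 counts (2400-fold per sequenced read, 95% counting interval 821 to 11600, edgeR adjusted p 3.03e-07). Hoxb9, whose product marks thoracic levels, stood at 156, 43.0 and 98.7 TPM against 0.21, 0.81 and 1.05 (log2 fold change 7.27, SE 0.56, edgeR adjusted p 5.4e-07). Hoxb5, in the middle, reached 3.89, 1.29 and 5.5 TPM and Hoxb3 5.82, 3.03 and 8.09. The reads carry no molecular identifiers, so such intervals and bounds cover counting error only.

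The 3 CEpiLC libraries differed among themselves in a way that followed position. Replicate 1 had the highest Hoxb7, Hoxb8 and Hoxb9, and Hoxb9 was its leading Hox gene. Replicate 3 had the highest Hoxb1 to Hoxb6, with Hoxb1 leading, and replicate 2 the lowest values of Hoxb2 to Hoxb9. Paralogue groups 1 to 3 made up 42% of the Hox TPM in replicate 1, 67.9% in replicate 2 and 68% in replicate 3. Other genes moved with this: Cdx2 was at 314, 169 and 192 TPM, Nkx1-2, a gene of caudal progenitors, at 432, 356 and 244, and Msgn1, a gene of presomitic mesoderm, at 64.5, 94.98 and 364. Their part in the spread of the Hox values was not tested.

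**Figure D2:**
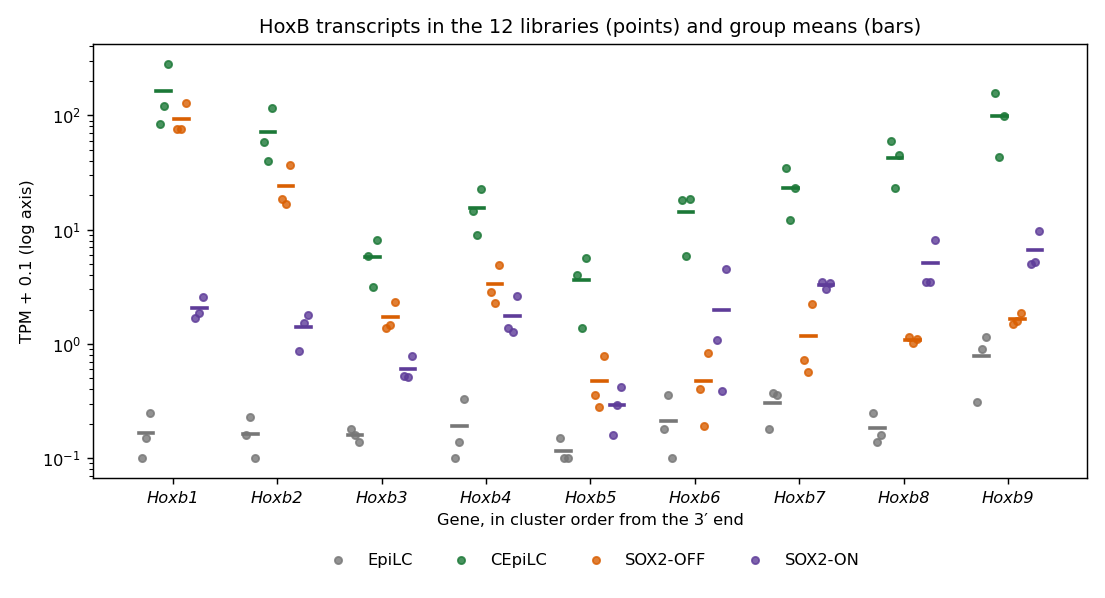
The y axis gives TPM + 0.1 on a log scale for Hoxb1 to Hoxb9 in cluster order, points are the 3 libraries of each group and bars the group means. CEpiLC is highest at Hoxb1 (mean 162 TPM) and Hoxb9 (mean 99.4), SOX2-OFF lies near CEpiLC at Hoxb1 only, and SOX2-ON lies below SOX2-OFF at Hoxb1 to Hoxb3 and above it at Hoxb7 to Hoxb9.

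SOX2-OFF against CEpiLC compared cells deprived of the transgene with wild type under the same medium. Of the 25 tested Hox genes, 17 were lower and 2 higher, beside 24.9 and 23.6% of all genes tested. The 17 were 4 genes of HoxA, 8 of HoxB, 3 of HoxC and 2 of HoxD. The median log2 fold change of the 25 was -1.73, against -0.01 for all genes tested.

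Along HoxB the difference deepened with each step towards the 5′ end, except that Hoxb7 was less reduced than Hoxb6. Hoxb1 stood at 75.1, 75.6 and 128 TPM in SOX2-OFF, values that overlapped those of CEpiLC (-0.78, SE 0.35, edgeR adjusted p 0.0819). Hoxb1 was called lower, however, without CEpiLC replicate 1 (-1.10, adjusted p 0.0113) and without SOX2-OFF replicate 3 (-1.09, adjusted p 0.0334), and without CEpiLC replicate 3 it stood at -0.11. Hoxb2, its neighbour with hindbrain expression, was lower at 18.5, 16.7 and 36.9 TPM against 58.0, 40.1 and 116 (-1.56, SE 0.37, edgeR adjusted p 0.00318).

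The middle genes Hoxb3 (1.29, 1.37 and 2.25 TPM) and Hoxb4 (2.72, 2.17 and 4.80 TPM against 14.5, 8.83 and 22.6) fell by 1.79 and 2.26 on the log2 scale. Hoxb5 was at 0.26, 0.18 and 0.68 TPM in SOX2-OFF and fell by 3.32. For Hoxb3, Hoxb4 and Hoxb5 the edgeR adjusted p was 0.000653, 0.000479 and 6e-04. Hoxb6 was at 0.30, 0.09 and 0.73 TPM against 18.2, 5.79 and 18.5 (-5.37, SE 0.86), and Hoxb7 at 0.62, 0.47 and 2.15 TPM against 34.5, 12.1 and 23.1 (-4.57, SE 0.48).

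The thoracic genes Hoxb8 and Hoxb9 were the most reduced. Hoxb8 was at 1.04, 0.91 and 1.01 TPM in SOX2-OFF against 59.8, 23.2 and 44.6 in CEpiLC (-5.42, SE 0.44, edgeR adjusted p 8.14e-07). Hoxb9 was at 1.38, 1.49 and 1.78 TPM (-6.02, SE 0.51, edgeR adjusted p 1.1e-06). Over the 9 tested HoxB genes the log2 fold change ranked against the paralogue number with a Spearman rho of -0.983, a description over genes that share libraries and a chromosome.

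Chromosome 11 as a whole was lower in the TetON line, by a median log2 difference of -0.51 over 678 genes without Hox genes in SOX2-OFF against CEpiLC, and the difference between the lines cannot be told apart from this shift. With the shift taken out, Hoxb1 was at -0.26 (edgeR adjusted p 0.571), Hoxb2 at -1.04 (edgeR adjusted p 0.0326) and Hoxb9 at -5.49 (edgeR adjusted p 4.74e-06). The number of Hox genes called was 19 with the shift removed and 19 without. Of the 10 tested genes nearest to HoxB on either side that are no Hox genes, 9 were lower, with a median of -0.79, and Ttll6, at 28.1 kb the nearest beyond the Hoxb13 end, was at -2.72 (edgeR adjusted p 0.000119). Hoxb2 to Hoxb9 lay below that median of the flanks, and Hoxb5 to Hoxb9 lay below Ttll6.

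In HoxA, on chromosome 6, which was higher by a median of 0.57 over 377 genes, Hoxa2, Hoxa3 and Hoxa5 fell. Hoxa2 was at 0.56, 1.09 and 0.94 TPM against 4.74, 2.84 and 4.39 (-2.18, edgeR adjusted p 0.000287), Hoxa3 at 1.99, 1.93 and 2.67 against 12.03, 6.72 and 16.96 (-2.43, edgeR adjusted p 5.47e-05). Hoxa5 was at 0.86, 1.5 and 2.35 TPM against 3.22, 2.31 and 4.84 (-1.13, edgeR adjusted p 0.0354), a call lost with DESeq2, with only the 6 libraries compared, without CEpiLC replicate 1 or 3 and without SOX2-OFF replicate 1 or 2. Hoxa7, at 1.2, 0.46 and 1.13 TPM against 0.95, 0.17 and 1.48, was not called (0.17, edgeR adjusted p 0.829).

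Of the 5 tested HoxC genes 3 were lower, all from low levels. Hoxc4 was at 1.81, 1.3 and 2.86 TPM against 5.65, 2.28 and 7.95 (-1.41, edgeR adjusted p 0.0176, lost without CEpiLC replicate 1 or 3 and without SOX2-OFF replicate 1 or 2). Hoxc6 was at 0.72, 0.29 and 0.35 TPM against 2.44, 1.22 and 3.73 (-2.34, edgeR adjusted p 0.00185), and Hoxc8 at 0.10, 0.19 and 0 against 1.47, 0.91 and 1.43 (-3.46, edgeR adjusted p 0.000504). Hoxc5, at 0.66, 0.88 and 1.43 TPM against 1.29, 0.74 and 1.91, was not called (-0.39, edgeR adjusted p 0.468). In HoxD, Hoxd1 was at 0.47, 0.61 and 0.30 TPM against 1.77, 1.32 and 1.77 (-1.73, edgeR adjusted p 0.000736), and Hoxd4 (-2.08, edgeR adjusted p 0.0196) was called lower at levels of at most 1.03 TPM, a call lost without SOX2-OFF replicate 1 or 2.

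SOX2-ON against CEpiLC compared cells with sustained SOX2 with wild type, both in CHIR99021, with doxycycline in SOX2-ON only. Of the 25 tested Hox genes, 18 were lower and 3 higher, beside 28.6 and 27.9% of all genes tested, and the 18 included all 9 tested HoxB genes. The median log2 fold change of the 25 was -2.26 against -0.01 for all genes. Both comparisons with CEpiLC share its 3 libraries, so that their values are given side by side and the overlap is not read.

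Here the deepest reductions lay at the anterior end of HoxB. Hoxb1 was at 1.60, 1.78 and 2.45 TPM in SOX2-ON (-6.41, SE 0.51, edgeR adjusted p 4.4e-07), and Hoxb2 at 0.77, 1.43 and 1.69 TPM (-5.81, SE 0.51, edgeR adjusted p 9e-07). Neither gene came near the lowest CEpiLC library, at 84.2 and 40.1 TPM. Hoxb3 to Hoxb8 fell by 2.90 to 4.20 on the log2 scale, and Hoxb9 was at -3.97. Of these, Hoxb4 was at 1.27, 1.18 and 2.55 TPM, Hoxb3 at 0.42, 0.41 and 0.69, and Hoxb5 at 0.06, 0.19 and 0.32. Hoxb8 remained at 3.40, 3.39 and 8.07 TPM and Hoxb9 at 4.93, 5.12 and 9.60. On chromosome 11, genes were lower by a median of -0.54 in this comparison, and with that shift taken out Hoxb1 was at -5.87 and Hoxb7, the least reduced, at -2.36 (edgeR adjusted p 0.000277).

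In HoxA, Hoxa2 (0.51, 0.27 and 0.42 TPM), Hoxa3 (1.24, 1.33 and 2.06 TPM) and Hoxa5 (0.54, 0.51 and 1.18 TPM) fell by 3.32, 2.97 and 2.22 on the log2 scale, while chromosome 6 was higher by a median of 0.56 over 377 genes. For Hoxa2, Hoxa3 and Hoxa5 the edgeR adjusted p was 1.95e-05, 9.1e-06 and 0.000801. In HoxC, Hoxc4 (0.62, 1.27 and 1.48 TPM), Hoxc5 (0.20, 0.21 and 0.43 TPM) and Hoxc6 (0.58, 0.62 and 1.1 TPM) fell by 2.26, 2.21 and 1.67 on the log2 scale. Hoxc8, at 0.18, 0.69 and 0.71 TPM, was called lower (-1.31, edgeR adjusted p 0.0281), a call lost with DESeq2 and without CEpiLC replicate 1 or 3 or SOX2-ON replicate 1. Hoxd1, at 0.60, 0.39 and 0.46 TPM, was at -1.74 (edgeR adjusted p 0.000446), beside -1.73 in SOX2-OFF.

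**Figure D3:**
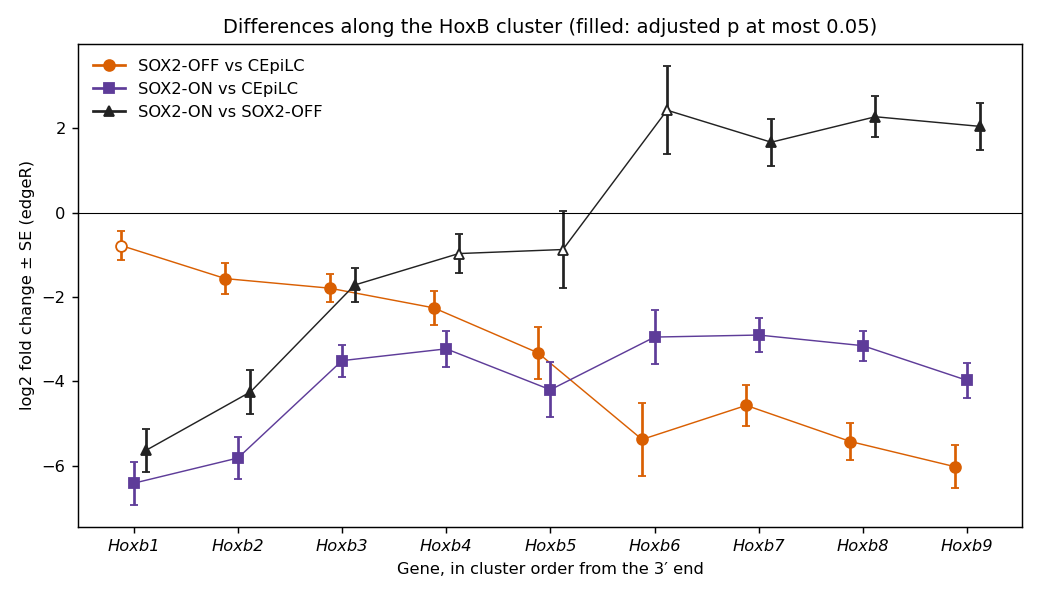
The y axis gives the edgeR log2 fold change with its standard error for Hoxb1 to Hoxb9 in cluster order, circles for SOX2-OFF and squares for SOX2-ON, each against CEpiLC, and triangles for SOX2-ON against SOX2-OFF. Filled symbols have an adjusted p of at most 0.05. The circles go down from -0.78 to -6.02, the squares are lowest at Hoxb1, and the triangles pass from -5.63 to above 0 at Hoxb6 to Hoxb9.

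SOX2-ON against SOX2-OFF, within the TetON line, kept the line the same and changed doxycycline and with it Sox2 RNA (log2 fold change 3.44, SE 0.22, edgeR adjusted p 3.11e-07). Of the 25 tested Hox genes, 5 were lower and 4 higher, beside 14.1 and 14.8% of all genes tested, so that the number of Hox calls did not stand apart. The calls divided by position. Those that were lower included Hoxb1, Hoxb2, Hoxb3 and Hoxc5, and the 4 that were higher were Hoxb7, Hoxb8, Hoxb9 and Hoxc8. The median over the 25 was -0.07. The chromosome shift was absent here, with medians of -0.03 on chromosome 11 and -0.02 on chromosome 6, and 9 Hox genes were called with or without removing it. Marker sums of other cell types moved with the groups. The 7 mesoderm markers summed to 125 to 239 TPM in SOX2-OFF and 3.39 to 5.53 in SOX2-ON. The caudal markers summed to 1030 to 1070 and 266 to 327. Of the 7 mesoderm and of the 6 caudal markers, all tested, 5 were lower and 1 higher in SOX2-ON. The higher caudal marker was Cdx2, at a mean of 65.65 TPM in SOX2-ON against 32.38 in SOX2-OFF. Of 7 neural and hindbrain markers, summing to 5.54 to 10.2 TPM in SOX2-OFF and 10.3 to 12.5 in SOX2-ON, 6 were tested, and 4 were higher and 0 lower in SOX2-ON. Their part in the Hox differences was not tested.

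Among the anterior genes, Hoxb1 had the largest difference (-5.63, SE 0.51, edgeR adjusted p 5.35e-06), from 4139 counts in SOX2-OFF to 103 in SOX2-ON. Hoxb2 followed (-4.25, SE 0.52, edgeR adjusted p 5.68e-05), then Hoxb3 (-1.72, SE 0.41, edgeR adjusted p 0.00696). In these 3 genes each SOX2-ON library was below each SOX2-OFF library, though the share of all genes without such overlap was not computed. Each of the 3 calls was kept under all alternatives. Hoxa2 (-1.13, edgeR adjusted p 0.0779) and Hoxa3 (-0.54, edgeR adjusted p 0.304) were not called, nor were the middle genes Hoxb4 (-0.97, edgeR adjusted p 0.133) and Hoxb5 (-0.88, edgeR adjusted p 0.511). Hoxc5 was lower (-1.82, SE 0.51, edgeR adjusted p 0.0168), on 20 against 59 counts, but not without SOX2-OFF replicate 3 or without SOX2-ON replicate 1 or 2.

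Among the posterior genes, Hoxb8 was higher in SOX2-ON (2.27, SE 0.48, edgeR adjusted p 0.00328), Hoxb9 likewise (2.04, SE 0.56, edgeR adjusted p 0.0153) and Hoxb7 too, at 3.38, 2.93 and 3.29 TPM (1.67, SE 0.55, edgeR adjusted p 0.0377). In each, the lowest SOX2-ON library was above the highest SOX2-OFF library, again without a share over all genes to set beside it. With limma-voom none of these calls held, at adjusted p values of 0.155 for Hoxb7, 0.11 for Hoxb8 and 0.231 for Hoxb9, with fold changes of 1.89, 2.12 and 1.97. The Hoxb9 call was also lost without SOX2-OFF replicate 1 or 2 or SOX2-ON replicate 3, and the Hoxb7 call without any of these or SOX2-ON replicate 1 or 2. Hoxb6 was at 0.98, 0.29 and 4.41 TPM in SOX2-ON, a spread over the libraries that left it uncalled (2.42, SE 1.05, edgeR adjusted p 0.101). Hoxc8 was higher by 2.15 (edgeR adjusted p 0.0364) on 32 against 6 counts, in overlapping libraries, a call lost in 7 of 14 alternatives. Of the 5 tested HoxD genes 0 were called by edgeR, DESeq2 or limma-voom, also at an unadjusted p of at most 0.05.

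Ratios within a library restate the reversal from the same genes and libraries, without any scaling between libraries. Hoxb9 RNA was 0.0139 to 0.0197 times the Hoxb1 level in SOX2-OFF, 0.349 to 1.86 times in CEpiLC and 2.88 to 3.92 times in SOX2-ON. Hoxb8 was 0.0274 to 0.0562 times the Hoxb2 level in SOX2-OFF, 0.384 to 1.03 times in CEpiLC and 2.37 to 4.78 times in SOX2-ON. In both ratios the 3 groups did not overlap. A two-sided exact permutation test of 3 against 3 libraries gave p = 0.1 for each pair of groups. This is the smallest it can give and follows from the lack of overlap, so the test adds nothing to it. The pairs of genes were chosen with their values known.

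By paralogue class, groups 1 to 3 held 88.1 to 89.1% of the Hox TPM in SOX2-OFF, 42 to 68% in CEpiLC and 26.3 to 39.5% in SOX2-ON. Groups 8 to 10 held 2.78 to 3.68% in SOX2-OFF, 19.6 to 41.6% in CEpiLC and 28 to 36% in SOX2-ON. Summed, groups 8 to 10 came to 4.64 to 6.99 TPM for SOX2-OFF, 68.2 to 219 for CEpiLC and 10.4 to 24.4 for SOX2-ON. The 3 SOX2-OFF libraries were thus alike in share while differing in total.

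**Figure D4:**
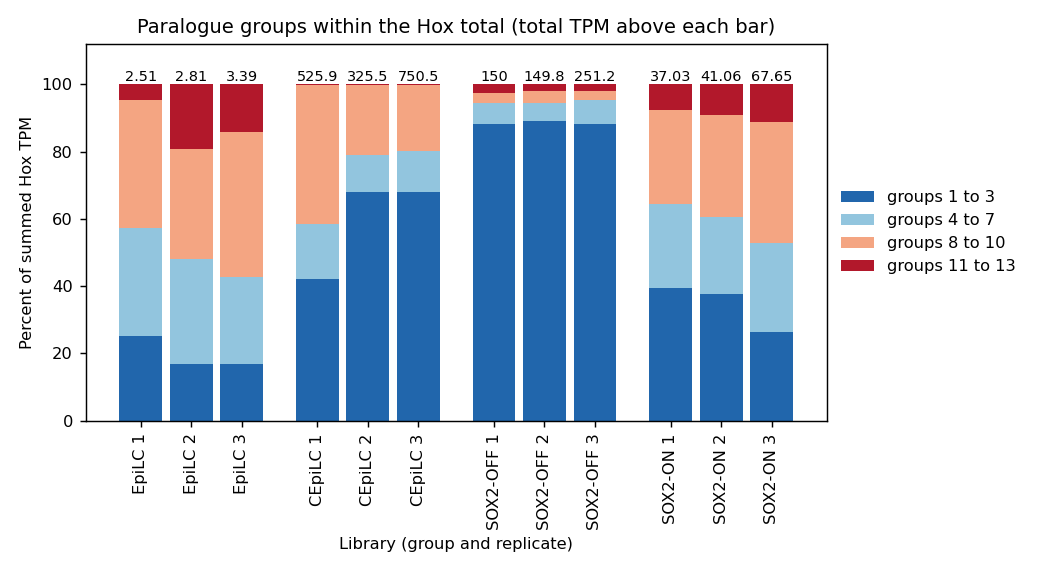
Each bar is 1 library, its colours the percent of summed Hox TPM in paralogue groups 1 to 3, 4 to 7, 8 to 10 and 11 to 13, and the number above it the summed Hox TPM. The SOX2-OFF bars are 88.1 to 89.1% groups 1 to 3, and the SOX2-ON bars have 26.3 to 39.5% in groups 1 to 3 and the largest share of groups 11 to 13 among the CHIR99021 groups (7.62 to 11.3%).

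Against EpiLC, both groups of the TetON line had gained Hox RNA, with CHIR99021 and line (and in SOX2-ON doxycycline) changed together. SOX2-OFF had 20 Hox genes higher and 0 lower, beside 31.5 and 30.6% of all genes tested, and SOX2-ON had 24 higher and 0 lower, beside 30.7 and 29.1%. Here too, a gene absent from EpiLC could enter the test only through a group in which it was high, so these counts and shares are not on equal terms. No Hox gene was lower in either by DESeq2 or limma-voom or at an unadjusted p of at most 0.05, but the EpiLC values of at most 1.05 TPM left little room for this. Limma-voom called 17 and 19 higher. In SOX2-OFF, Hoxb9 was not called against EpiLC (1.26, SE 0.82, edgeR adjusted p 0.198), nor were Hoxb6 (1.34, edgeR adjusted p 0.514), Hoxc6, Hoxc8 and Hoxd4, whereas Hoxb1 was at 4139 against 3 counts (1610-fold, 95% counting interval 551 to 7810). In SOX2-ON, Hoxb9 was called (3.30, SE 0.64, edgeR adjusted p 0.000611, but 0.0668 with limma-voom), and Hoxb8 was at 5.74 (edgeR adjusted p 1.83e-05). Hoxb1 in SOX2-ON, at 103 against 3 counts, was 34.2-fold higher (95% counting interval 11.4 to 168), a call lost with limma-voom and without EpiLC replicate 1 or 2 or SOX2-ON replicate 3.

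Hoxc13 and Hoxd13 were higher in both TetON groups than in CEpiLC, each at a low level. Hoxc13, of the last paralogue group, known from tail and hair follicle, was at 1.74, 1.62 and 2.58 TPM in SOX2-OFF, and at 1.53, 1.21 and 3.29 with SOX2-ON, against 0.09, 0.09 and 0.23 in CEpiLC and 0.04 to 0.12 in EpiLC. Its log2 fold change against CEpiLC was 4 in SOX2-OFF (SE 0.53, edgeR adjusted p 4.31e-05) and 3.98 in SOX2-ON (SE 0.53, edgeR adjusted p 3.13e-05), and -0.02 between the TetON groups. Hoxd13, its paralogue at the 5′ end of HoxD, was at 0.97, 0.79 and 1.51 TPM in SOX2-OFF, and at 0.92, 0.85 and 1.34 with SOX2-ON, against 0.20, 0.30 and 0.68 in CEpiLC. Its differences of 1.62 and 1.53 passed the test (edgeR adjusted p 0.0235 and 0.0252), but not without CEpiLC replicate 1 or 2 or without replicate 3 of the TetON group compared.

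Hoxa10, of posterior trunk levels, was at 0.63, 1.32 and 2.17 TPM in SOX2-ON and 0.51, 0.56 and 1.17 in SOX2-OFF against 0.03, 0.05 and 0.62 in CEpiLC, and was called in SOX2-ON (3.04, SE 0.76, edgeR adjusted p 0.00419). In SOX2-OFF it missed the threshold (2.13, edgeR adjusted p 0.0514) but was called with limma-voom (2.69, adjusted p 0.0179), without the filter on low counts, with the replicate block and without CEpiLC replicate 3 (3.95, adjusted p 0.00298). The TetON groups did not differ in Hoxa10 beyond the threshold (0.91, edgeR adjusted p 0.293). Hoxa11 was under the filter on low counts and not tested: it had 0 counts in the 6 wild-type libraries, 2, 2 and 5 with SOX2-OFF and 7, 28 and 43 with SOX2-ON. Scaled to library totals and set against a floor of 3 counts over the CEpiLC group, SOX2-ON was at least 27.6-fold and SOX2-OFF at least 3.74-fold higher. Hoxa7 had 2 counts in EpiLC and 75 in SOX2-ON (37.3-fold, 95% counting interval 9.97 to 314, edgeR adjusted p 0.000322) and stood at 1.26, 1.23 and 2.07 TPM in SOX2-ON, which did not pass the test against CEpiLC (0.85, edgeR adjusted p 0.194). Chromosome 6 as a whole was higher in the TetON line, by median log2 differences of 0.57 in SOX2-OFF and 0.56 in SOX2-ON against CEpiLC, and 0.585 in SOX2-ON against EpiLC. The values of Hoxa7, Hoxa10 and Hoxa11 are given without removing that shift. Hoxd9 and Hoxd8 had differences of 1.23 to 1.3 against CEpiLC in both TetON groups, with edgeR adjusted p values of 0.0594 to 0.118. Some alternatives called them, such as Hoxd8 with the replicate block and without CEpiLC replicate 3 in both groups, and Hoxd9 in SOX2-OFF with limma-voom. The markers of extraembryonic endoderm given above moved with the TetON line as well, and their part in these genes was not tested.

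**Figure D5:**
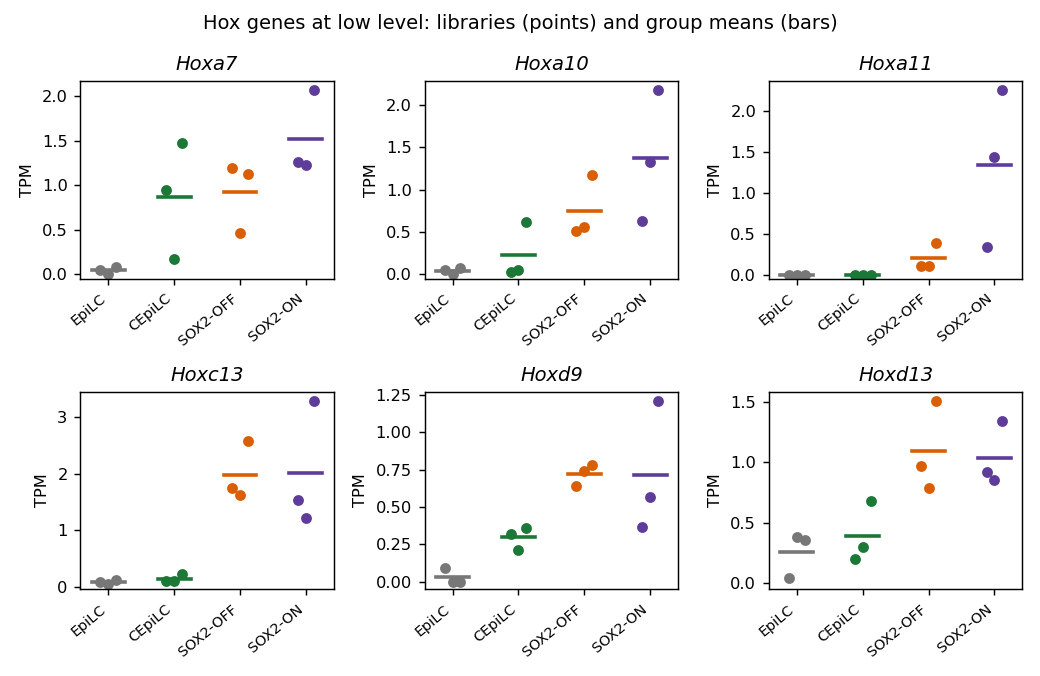
TPM on a linear axis for Hoxa7, Hoxa10, Hoxa11, Hoxc13, Hoxd9 and Hoxd13 in the 4 groups, points for libraries and bars for means. Hoxc13 is at 1.21 to 3.29 TPM in the 6 TetON libraries and at most 0.23 in the 6 wild-type ones, and Hoxa11 is at 0 in wild type and up to 2.26 TPM in SOX2-ON.

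The remaining Hox genes had few reads. Hoxd4 reached 1.03 TPM and Hoxd8 1.22 at most. Of the 14 genes not tested, Hoxa4 had 64 reads in all, at 1.06, 0.38 and 1.3 TPM in CEpiLC, 0 in EpiLC, 0.42 to 0.62 in SOX2-OFF and 0.15 to 0.57 in SOX2-ON, and Hoxa9 had 47 and Hoxc10 had 40. Hoxc9 (30 reads), Hoxd3 (19), Hoxb13 (14), Hoxd11 (11), Hoxa13 (10), Hoxd10 (10), Hoxa6 (2) and Hoxc12 (2) complete the list with Hoxa11 and the 2 genes without reads. Hoxa13 had 8 of its 10 reads in SOX2-OFF and none in wild type. At these counts no difference was tested.

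The known upstream regulators of Hox genes were set beside them. Of 11 regulators, 10 were tested, and 7 were higher in CEpiLC than in EpiLC, 7 lower in SOX2-OFF than in CEpiLC and 9 lower in SOX2-ON than in CEpiLC, beside 22.1, 24.9 and 28.6% of all genes tested. Within the TetON line, where 14.8% of all genes tested were higher and 14.1% lower, 3 were higher in SOX2-ON than in SOX2-OFF, namely Cdx2 (0.97, edgeR adjusted p 0.00481), Cdx4 (1.5, edgeR adjusted p 0.0203) and Gbx2 (1.38, edgeR adjusted p 0.000946). Cdx2, a CDX factor that acts on Hox clusters in the tail bud, was at 31.9, 29.3 and 35.9 TPM in SOX2-OFF against 70.3, 51.8 and 74.9 in SOX2-ON, and Cdx4, its homologue, at 3.42, 2.82 and 4 against 9.2, 9.43 and 11.1. The 2 that were lower in SOX2-ON were Cdx1 (-1.74, edgeR adjusted p 0.000208), at 53.1, 46.9 and 47.6 TPM against 17.9, 11.96 and 15.9, and Evx1 (-2.49, edgeR adjusted p 3.73e-05), a homeobox gene of the primitive streak. The part of these regulators in the Hox differences was not tested.

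Of 12 retinoic acid genes 10 were tested, of which 8 were lower and 0 higher in SOX2-ON than in CEpiLC, and 6 lower and 1 higher in SOX2-OFF, beside 28.6 and 27.9% of all genes tested in SOX2-ON and 24.9 and 23.6% in SOX2-OFF. The 1 higher was Cyp26a1, which degrades retinoic acid, at 27.7, 29.8 and 53.96 TPM in SOX2-OFF against 1.01, 2.45 and 10.7 in CEpiLC and 0.51, 0.41 and 1.18 in SOX2-ON. Aldh1a2, which makes retinoic acid, was at 11.2, 16.3 and 104 TPM in CEpiLC, highest in replicate 3 where Hoxb1 was highest too, and at 4.94, 4.98 and 10.5 with SOX2-OFF and 1.8, 1.46 and 2.07 with SOX2-ON. All 9 TALE cofactor genes were tested, and 4 were higher and 4 lower in SOX2-ON than in CEpiLC, where 27.9 and 28.6% of all genes tested were. Pknox2 had the largest fall (-3.10, edgeR adjusted p 1.43e-07), and Meis1 was at 2.44, 2.79 and 3.99 TPM in SOX2-ON against 0.45, 0.55 and 0.91 in CEpiLC (2.32, edgeR adjusted p 0.000164).

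Of 21 other transcripts within or named for the clusters, 5 were tested, and all 5 were higher in CEpiLC than in EpiLC, beside 22.1% of all genes tested. Of the 21, 17 had no count in EpiLC, and such a transcript could be tested only through a group in which it was high. Hoxaas3, an antisense RNA of HoxA, was at 18.0, 8.62 and 40.6 TPM in CEpiLC and 0 in EpiLC (at least 116-fold higher), and fell to 0.18, 0.32 and 2.32 TPM in SOX2-OFF (-4.75, edgeR adjusted p 0.000613) and to 0.63, 2.05 and 2.95 in SOX2-ON (-3.59, edgeR adjusted p 0.00112). The other transcript lower in both TetON groups was Haglr, of HoxD. Hotairm1, an antisense RNA of HoxA, was at 18.9, 8.46 and 19.6 TPM in CEpiLC, 10.2, 24.0 and 34.6 with SOX2-OFF and 11.7, 13.1 and 6.38 in SOX2-ON, with no call among these 3 groups. It had only 91 reads over the 12 libraries, so the missing call says little. Reads were counted by strand, so that these antisense transcripts were kept apart from the coding genes they overlap.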

How the data were processed

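Polyadenylated RNA of 12 mouse cultures was sequenced as stranded single-end reads of 76 bp. The authors trimmed reads with cutadapt 1.16, aligned them with STAR 2.5.2a and quantified mm10 RefSeq genes by strand with RSEM 1.3.0. They deposited expected counts and TPM for each gene and library, without pooling replicates. Between 2.59 and 3.43% of a library's values were not exactly whole.

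Expected counts were rounded. The 14196 genes passing filterByExpr entered edgeR's quasi-likelihood test (edgeR 4.0.16, TMM, all 12 libraries, Benjamini-Hochberg adjustment, R 4.3.3), with calls at an adjusted p of at most 0.05. TPM served for levels only. The share of all genes whose libraries did not overlap between groups was not computed. Groups came from the labels. The test was checked on simulated counts. Where a group had 0 counts, a bound against 3 counts was used, and with 1 to 3 counts a ratio with a 95% exact interval. The chromosome shift was the median deviation of genes with at least 4 log2 CPM.

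Alternatives were RLE or library size scaling, no filter, DESeq2 1.42.0 (the study's tool), limma-voom 3.58.1, the 6 libraries compared, a replicate block, removal of the chromosome shift, a threshold of 0.01 and leaving out each library. Hox genes, gene lists, motifs and flanks (5 genes a side) were chosen with earlier results of these data known. The text gives values per library for Hox genes called at a mean of at least 1 TPM, and ranges for others. A gene counted in the totals is not reported here. Same-numbered EpiLC and CEpiLC libraries deviated together weakly (r of 0.12, 0.132 and 0.103), from the values alone. Against CEpiLC, r was 0.0526, 0.179 and 0.173 for SOX2-OFF and 0.0637, 0.201 and 0.163 for SOX2-ON. In the remaining comparisons r ran from -0.0151 to 0.108. The labels number replicates alike in every group and name no pairing.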

Additional observations from a re-analysis of the deposited data

How the results depend on the processing

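The number of Hox genes called stayed within 1.5 times its reported value in 5 of the 6 comparisons under every alternative run. The exception was SOX2-ON against SOX2-OFF, where 9 genes were called, but 5 with limma-voom (0 higher and 5 lower) and 5 at a threshold of 0.01 (1 higher and 4 lower). Leaving out each library in turn gave 20 to 21 calls for CEpiLC against EpiLC, 15 to 19 for SOX2-OFF and 19 to 22 for SOX2-ON against CEpiLC, 7 in each case for SOX2-ON against SOX2-OFF, and 18 to 20 and 18 to 23 for SOX2-OFF and SOX2-ON against EpiLC. No fold change of a called Hox gene reversed in any alternative. The genes called in SOX2-ON against SOX2-OFF were the least stable, with 4 of 9 calls (Hoxb1, Hoxb2 and Hoxb3 among them) kept throughout, against 20 of 21 in CEpiLC against EpiLC, where Hoxd9 was lost without EpiLC replicate 2 or 3 or CEpiLC replicate 1. With the replicate number as a block, 22 Hox genes were called in CEpiLC against EpiLC, and the block ended no call there. Against CEpiLC, the block gave 22 calls for SOX2-OFF and 23 for SOX2-ON. It gave 11 for SOX2-ON against SOX2-OFF, and 21 and 25 for SOX2-OFF and SOX2-ON against EpiLC. The block added calls, namely Hoxd8 in CEpiLC against EpiLC, Hoxa10, Hoxb1 (-0.65) and Hoxd8 in SOX2-OFF and Hoxd4 and Hoxd8 in SOX2-ON against CEpiLC, Hoxa5, Hoxb4 and Hoxb6 in SOX2-ON against SOX2-OFF (where it ended that of Hoxc8), Hoxd4 in SOX2-OFF and Hoxb5 in SOX2-ON against EpiLC. Other alternatives also called Hoxa10 and Hoxd9 in SOX2-OFF against CEpiLC (limma-voom, 2.69 and 1.28) and Hoxb9 in SOX2-OFF against EpiLC (only the 6 libraries compared, 1.24), and leaving out a library called further genes near the threshold, among them Hoxd9 in SOX2-ON against CEpiLC and Hoxa2 in SOX2-ON against SOX2-OFF. Of the differences named without a call, 3 turned sign in some alternative: Hoxd13 in CEpiLC against EpiLC (-0.09 without EpiLC replicate 1), Hoxa7 in SOX2-OFF against CEpiLC (-0.39 with the chromosome shift removed) and Hoxc13 in SOX2-ON against SOX2-OFF (0.25 without SOX2-ON replicate 2). No scaling moved the median of all genes by over 0.1. Depth limits what can be said of the 14 Hox genes not tested.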
